A study of Homo sapiens with 8 samples.

Results

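The genes followed here are 10 targets of the transcription factor p53, in human neuroblastoma cells given an shRNA against TRPM7, an ion channel fused to a kinase: CDKN1A, MDM2, SESN1, SESN2, PHLDA3, TP53I3, TP53INP1, FDXR, ZMAT3 and GDF15. The genes were taken by symbol from the array table, and all of their probes were kept, which gave 10 genes and 18 probes of 31426 symbols and 47322 probes. They were chosen because p53 targets lay higher with TRPM7 shRNA in both lines in these same arrays, so the changes with TRPM7 shRNA within each line are given as a description, with no test. The difference between the lines in the size of the change is built from those same changes and is given in the same way. The choice did not use the difference between the lines in control cells, which was tested.

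The arrays compare SH-SY5Y cells, a neuroblastic line, and SH-EP2 cells, an epithelial-like line, both of which are known as subclones of 1 parental neuroblastoma line. Each line was stably transduced with a lentiviral TRPM7 shRNA (TRPM7 shRNA cells) or with a scrambled, nonfunctional shRNA (control cells), and all cells, controls included, went through puromycin selection. Each of the 4 groups has 2 arrays, prepared in duplo, and nothing states whether these come from separate cultures, so that p-values measure only the spread between these arrays, which may be technical. The labels name no second TRPM7 shRNA on the arrays, so effects of TRPM7 and of the shRNA sequence itself cannot be told apart. The study used the arrays to ask how TRPM7 bears on the progenitor-like features of these cells. The methods give the lines different media and the labels give them the same, so line and medium cannot be told apart if the media differed.

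Signals are Illumina HumanHT-12 v4 bead intensities, given below as log2 values after RMA background correction and quantile normalisation. Median raw signals were 104.7 to 119.9 per array, and 40.8% to 44.2% of probes had a detection p under 0.05, which counts as detected. The only probe for TRPM7 was detected on 0 of 8 arrays, so these arrays do not check the knockdown. Of 6 noradrenergic markers, 5 were lower in SH-EP2 control than in SH-SY5Y control cells and TH was not detected on any array, and of 6 mesenchymal markers 5 were higher and VIM was lower, with a log2 difference of -0.19 (limma adjusted p under 0.05 for each difference). With TRPM7 shRNA, DBH (-1.20) and VIM (-0.30) fell in SH-SY5Y cells, and in SH-EP2 cells COL1A1 (-0.56) fell and CD44 rose (0.77). CHGA (-0.63) also passed the test in SH-EP2 cells, but its probe was not detected on any array of that line. That value is therefore a difference between background signals. The other markers did not pass the test. The part of these markers in the results below was not tested.

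The transcription factor p53 is held at a low level by MDM2, which marks it for degradation, and is stabilised after DNA damage and other stress. It then binds a response element made of adjacent decamers and switches on genes that halt the cell cycle, limit growth and oxidative damage, or start cell death. SESN2 and GDF15 are also known targets of ATF4, the factor of the integrated stress response, which works without p53.

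The response element was searched for in promoter windows, to show letters near these genes that resemble it. RefSeq windows of GRCh38.p14 run from 250 bases before to 50 bases after a start site, and 8 of the 10 genes matched an entry, in 15 windows (CDKN1A, MDM2, SESN1, SESN2, TP53I3, FDXR, ZMAT3 and GDF15). The full p53 consensus of 20 bases, 2 decamers with no spacer, was used, which reads the same on both strands. At most 3 mismatches to it were found in 5 of the 15 windows, in MDM2, SESN1, FDXR and GDF15, against 5.20% of all 35116 windows. At most 2 mismatches were found in 2 of the 15 windows, both of MDM2 and sharing 1 site, against 0.649% of all windows. The number of mismatches was chosen after the counts had been seen, and the letters in these windows do not show binding. In CDKN1A, SESN2, TP53I3 and ZMAT3 the nearest match had 4 or more mismatches in these windows, which says nothing about elements outside them. The stretches below show the 3 matches that lie before a start site, at chr12:68808903-68808962 on the plus strand (MDM2, 2 mismatches), chr6:109008998-109009057 on the minus strand (SESN1, 3 mismatches) and chr17:74872995-74873035 on the minus strand (FDXR, 3 mismatches), with the 20 matched bases in capitals.
MDM2: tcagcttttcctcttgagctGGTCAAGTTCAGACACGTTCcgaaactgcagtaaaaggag
SESN1: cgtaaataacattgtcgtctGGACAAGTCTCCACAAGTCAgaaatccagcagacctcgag
FDXR: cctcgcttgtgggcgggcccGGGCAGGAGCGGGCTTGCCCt

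With TRPM7 shRNA, CDKN1A, SESN1, PHLDA3 and TP53INP1 lay above the controls on every array of both lines, by 1.35-fold to 1.94-fold. TP53I3 and GDF15 lay above the controls in SH-EP2 cells, while in SH-SY5Y cells their groups overlapped. MDM2 was not above its controls in either line. So the description by which the genes were chosen, higher in both lines, did not hold for MDM2, TP53I3 and GDF15, nor for the dimmer of the detected ZMAT3 probes. A gene is given by its brightest probe unless another probe is named. Of the 18 probes, 13 were detected on at least 2 arrays, 1 on a single array and 4 on none, and the undetected ones were a probe of CDKN1A and 3 of MDM2.

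Both TRPM7 shRNA arrays lay above both control arrays for 7 of the 10 genes in SH-SY5Y cells, where 20.0% of all probes did so, and for 9 of 10 in SH-EP2 cells, where 22.1% did. They did so in both lines for 7 of 10 genes, against 5.58% of all probes. The median log2 change of the 10 genes was 0.45 in SH-SY5Y and 0.61 in SH-EP2 cells, beside 0.0048 and 0.0061 over all probes. Since the genes were chosen on these changes, nothing is read from these counts. Without the SH-SY5Y control replicate 2 array the median in SH-SY5Y cells was 0.23. Over all probes the SH-SY5Y calls were 382 higher and 617 lower, and with median scaling in place of quantile normalisation 553 higher and 284 lower.

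**Figure D1:**
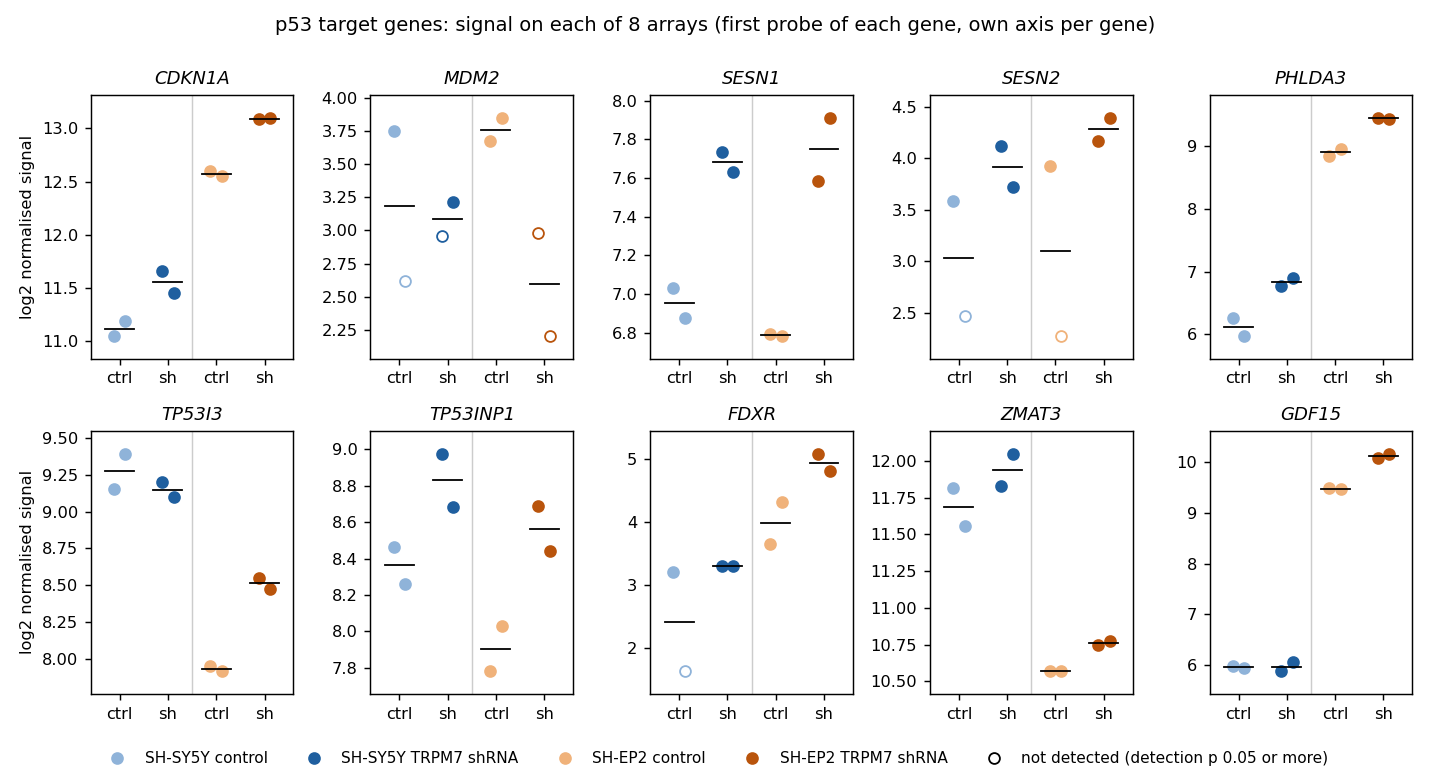
Log2 normalised signal (vertical axis, own range for each gene) of the brightest probe of the 10 p53 target genes on each of the 8 arrays, with ctrl for control and sh for TRPM7 shRNA cells. Points are single arrays, open points are arrays where the probe was not detected, and black lines are group means. CDKN1A, SESN1, PHLDA3 and TP53INP1 show both TRPM7 shRNA arrays above both controls in each line, and MDM2 does not.

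Cell cycle arrest was represented by CDKN1A, which encodes p21, an inhibitor of cyclin-dependent kinases. Its log2 signal was 11.05 and 11.19 in SH-SY5Y control cells and 11.66 and 11.45 in SH-SY5Y TRPM7 shRNA cells. It was 12.60 and 12.55 in SH-EP2 control cells and 13.08 and 13.09 in SH-EP2 TRPM7 shRNA cells. The groups did not overlap in either line, and the lowest SH-EP2 array was above the highest SH-SY5Y array. The log2 change was 0.44 (SE 0.0768, 1.35-fold) in SH-SY5Y and 0.52 (SE 0.0768, 1.43-fold) in SH-EP2 cells. The other CDKN1A probe was not detected on any array and carries no value.

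Feedback on p53 was represented by MDM2 and TP53INP1. MDM2, the ubiquitin ligase that limits p53, was close to background on its brightest probe. Its log2 signal was 3.75 and 2.62 in SH-SY5Y control, 2.96 and 3.21 in SH-SY5Y TRPM7 shRNA, 3.68 and 3.85 in SH-EP2 control, and 2.98 and 2.20 in SH-EP2 TRPM7 shRNA cells. The SH-SY5Y groups overlapped, with a log2 change of -0.10 (SE 0.509). In SH-EP2 cells both control arrays were detected and neither TRPM7 shRNA array was, with a log2 change of -1.17 (SE 0.509). This change depended on the background correction, with -0.50 and -0.24 under normexp at an offset of 16 and 50 and -0.15 with no correction. With the mean over all MDM2 probes, the others being undetected, it was -0.29. An undetected array was then taken at the lowest signal of a detected probe on it, or at its own signal if higher. With the RMA background MDM2 was in this way 1.50-fold lower with TRPM7 shRNA in SH-EP2 cells. That figure leaves out the error of the change. MDM2 holds the closest match to the p53 element among the stretches printed above. TP53INP1, a nuclear stress protein that promotes the phosphorylation of p53, had log2 signals of 8.46 and 8.26 in SH-SY5Y control, 8.98 and 8.68 in SH-SY5Y TRPM7 shRNA, 7.78 and 8.03 in SH-EP2 control, and 8.69 and 8.44 in SH-EP2 TRPM7 shRNA cells. Every TRPM7 shRNA array was above the controls of its line, with log2 changes of 0.47 (SE 0.139) and 0.66 (SE 0.139). The other TP53INP1 probe gave 0.39 (SE 0.137) in SH-SY5Y and 0.78 (SE 0.137) in SH-EP2 cells, likewise with no overlap.

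The sestrins SESN1 and SESN2 restrain mTORC1 and protect against oxidative damage. SESN1 had log2 signals of 7.03 and 6.87 in SH-SY5Y control, 7.74 and 7.63 in SH-SY5Y TRPM7 shRNA, 6.79 and 6.78 in SH-EP2 control, and 7.59 and 7.91 in SH-EP2 TRPM7 shRNA cells. All 4 TRPM7 shRNA arrays were above all 4 control arrays, with log2 changes of 0.73 (SE 0.154, 1.66-fold) and 0.96 (SE 0.154, 1.94-fold). SESN2 was near background, with 3.58 and 2.47 in SH-SY5Y control, 4.12 and 3.72 in SH-SY5Y TRPM7 shRNA, 3.93 and 2.28 in SH-EP2 control, and 4.17 and 4.39 in SH-EP2 TRPM7 shRNA cells. In each line 1 of the 2 control arrays was not detected and both TRPM7 shRNA arrays were above the controls. The log2 changes of 0.89 and 1.18 had a standard error of 0.535. They were 0.12 and 0.16 with no background correction, and with 1 array left out they reached from 0.34 (without SH-SY5Y control replicate 2) to 1.43 (without SH-SY5Y control replicate 1) and from 0.36 (without SH-EP2 control replicate 2) to 2.00 (without SH-EP2 control replicate 1).

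TP53I3 and FDXR are oxidoreductases. TP53I3, a quinone reductase relative also called PIG3, had log2 signals of 9.15 and 9.39 in SH-SY5Y control, 9.20 and 9.10 in SH-SY5Y TRPM7 shRNA, 7.95 and 7.92 in SH-EP2 control, and 8.55 and 8.47 in SH-EP2 TRPM7 shRNA cells. The SH-SY5Y groups overlapped, with a log2 change of -0.12 (SE 0.115) that was 0.016 under median scaling, whereas in SH-EP2 cells the groups were apart by 0.58 (SE 0.115, 1.49-fold). A dimmer TP53I3 probe gave -0.24 and 0.19 (SE 0.444). FDXR, a mitochondrial reductase that passes electrons to ferredoxin, had log2 signals of 3.21 and 1.64 in SH-SY5Y control, 3.31 and 3.30 in SH-SY5Y TRPM7 shRNA, 3.65 and 4.33 in SH-EP2 control, and 5.09 and 4.81 in SH-EP2 TRPM7 shRNA cells. The TRPM7 shRNA arrays were above the controls in both lines, but in SH-SY5Y cells only just over the higher control, and the lower control array was not detected (log2 change 0.88, SE 0.497). In SH-EP2 cells, where all 4 arrays were detected, it was 0.96 (SE 0.497). With no background correction these changes were 0.13 and 0.16, and the SH-SY5Y one was 0.096 without control replicate 2 and 1.66 without control replicate 1. The SH-EP2 one was 0.63 without control replicate 1. The other FDXR probe was detected on 1 SH-EP2 TRPM7 shRNA array only, at a log2 signal of 3.85. The undetected arrays of that line were at 2.93 (TRPM7 shRNA) and 1.58 and 2.75 (control).

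PHLDA3, which competes with the survival kinase AKT for membrane lipids, had log2 signals of 6.27 and 5.98 in SH-SY5Y control, 6.78 and 6.89 in SH-SY5Y TRPM7 shRNA, 8.85 and 8.95 in SH-EP2 control, and 9.44 and 9.43 in SH-EP2 TRPM7 shRNA cells. The groups did not overlap, and the log2 changes were 0.71 (SE 0.137, 1.64-fold) and 0.54 (SE 0.137, 1.45-fold). GDF15, a secreted cytokine of the TGF-beta family, had 5.97 and 5.94 in SH-SY5Y control, 5.88 and 6.06 in SH-SY5Y TRPM7 shRNA, 9.48 and 9.46 in SH-EP2 control, and 10.07 and 10.16 in SH-EP2 TRPM7 shRNA cells. The SH-SY5Y arrays overlapped, with a log2 change of 0.014 (SE 0.129), and the SH-EP2 groups were 0.65 apart (SE 0.129, 1.57-fold).

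ZMAT3, a zinc finger protein that binds RNA, was measured by 2 probes that were detected on every array and did not move together. The brighter one had log2 signals of 11.82 and 11.55 in SH-SY5Y control and 11.83 and 12.05 in SH-SY5Y TRPM7 shRNA cells. It had 10.57 and 10.57 in SH-EP2 control and 10.75 and 10.78 in SH-EP2 TRPM7 shRNA cells. The TRPM7 shRNA arrays were above the controls, with log2 changes of 0.25 and 0.19 (SE 0.0913) in the lines. In SH-SY5Y cells the lower of them was only just over the higher control. The dimmer one had 9.32 and 9.16, then 8.92 and 8.88 in SH-SY5Y cells, and 9.19 and 9.29, then 9.19 and 9.11 in SH-EP2 cells. On that probe the TRPM7 shRNA arrays were below the controls in SH-SY5Y cells, with log2 changes of -0.34 and -0.09 (SE 0.104) in the lines. The direction for ZMAT3 therefore depends on the probe, and which transcripts the probes take up was not examined.

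**Figure D2:**
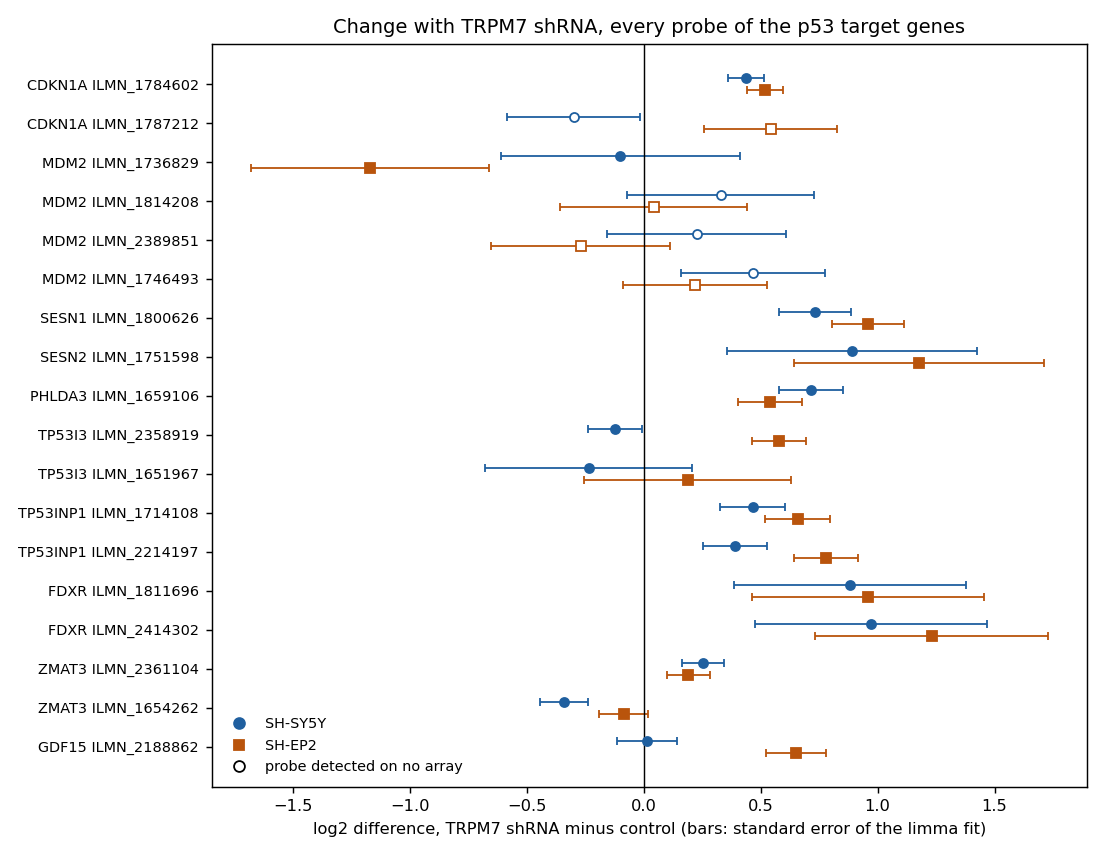
Log2 difference between TRPM7 shRNA and control cells (horizontal axis) for each of the 18 probes of the p53 target genes, with circles for SH-SY5Y and squares for SH-EP2 cells. Bars are the standard error of the limma fit over 2 arrays per group, and open markers are probes detected on no array. The probes of SESN1, PHLDA3 and TP53INP1 and the detected probe of CDKN1A lie above 0 in both lines, the ZMAT3 probes lie on opposite sides of 0, and the MDM2 probe at -1.17 is its brightest, which was not detected in SH-EP2 TRPM7 shRNA cells.

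Control cells of the lines differed in most of these genes, in both directions. CDKN1A, PHLDA3, FDXR and GDF15 were higher in SH-EP2 and TP53I3, TP53INP1 and ZMAT3 were lower, while MDM2, SESN1 and SESN2 did not pass the test. The count of 7 of 10 stands beside 26.2% of all probes and 50.3% of probes detected on at least 2 arrays, as all 10 were. GDF15 was 11.4-fold higher in SH-EP2 (log2 difference 3.51, SE 0.129, limma adjusted p = 1.78e-14), and PHLDA3 6.86-fold higher (2.78, SE 0.137, adjusted p = 1.92e-12). CDKN1A was 2.74-fold higher (1.45, SE 0.0768, adjusted p = 5.66e-12), a call lost when its undetected probe was averaged in (0.30, adjusted p = 0.172). TP53I3 was 2.53-fold lower (-1.34, SE 0.115, adjusted p = 1e-08), and the brighter ZMAT3 probe 2.17-fold lower (-1.12, SE 0.0913, adjusted p = 4.9e-09). On the dimmer ZMAT3 probe the log2 difference was -0.0028 (SE 0.104, adjusted p = 0.992). On the dimmer TP53I3 probe it was -0.86 (SE 0.444, adjusted p = 0.197), which did not pass the test. In cells of a line, fewer cells with a transcript and less of it per cell cannot be told apart.

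The smaller line differences rested on few arrays. TP53INP1 was lower in SH-EP2 control cells by -0.46 (SE 0.139, limma adjusted p = 0.0168) and its other probe by -0.98 (SE 0.137, adjusted p = 8.25e-06). The first of these was no longer called without SH-EP2 control replicate 1 (-0.33) or SH-SY5Y control replicate 1 (-0.36). FDXR was higher by 1.57 (SE 0.497, adjusted p = 0.0224), and was no longer called without SH-EP2 control replicate 2 (1.24) or SH-SY5Y control replicate 2 (0.79), the array on which it was undetected. Neither gene's difference on its brightest probe was called in the fit with no intensity trend, and that of FDXR was also lost with normexp at an offset of 16 and with the mean over probes (0.94). MDM2 differed by 0.58 (SE 0.509, adjusted p = 0.511), SESN1 by -0.16 (SE 0.154, adjusted p = 0.548) and SESN2 by 0.08 (SE 0.535, adjusted p = 0.953).

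The size of the change with TRPM7 shRNA was then set side by side for the lines, as the SH-EP2 change minus the SH-SY5Y change, with no test for these genes. The value was highest for TP53I3, at 0.70 (SE 0.163), and for GDF15, at 0.64 (SE 0.183), the genes whose SH-SY5Y groups overlapped and whose SH-EP2 TRPM7 shRNA arrays lay above the controls. The remaining 8 genes had differences from -1.07 (MDM2, SE 0.72) to 0.29 (SESN2, SE 0.756), both with wide errors. For CDKN1A the difference was 0.08 (SE 0.109), for SESN1 0.23 (SE 0.218), for PHLDA3 -0.17 (SE 0.194) and for ZMAT3 -0.06 (SE 0.129).

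**Figure D3:**
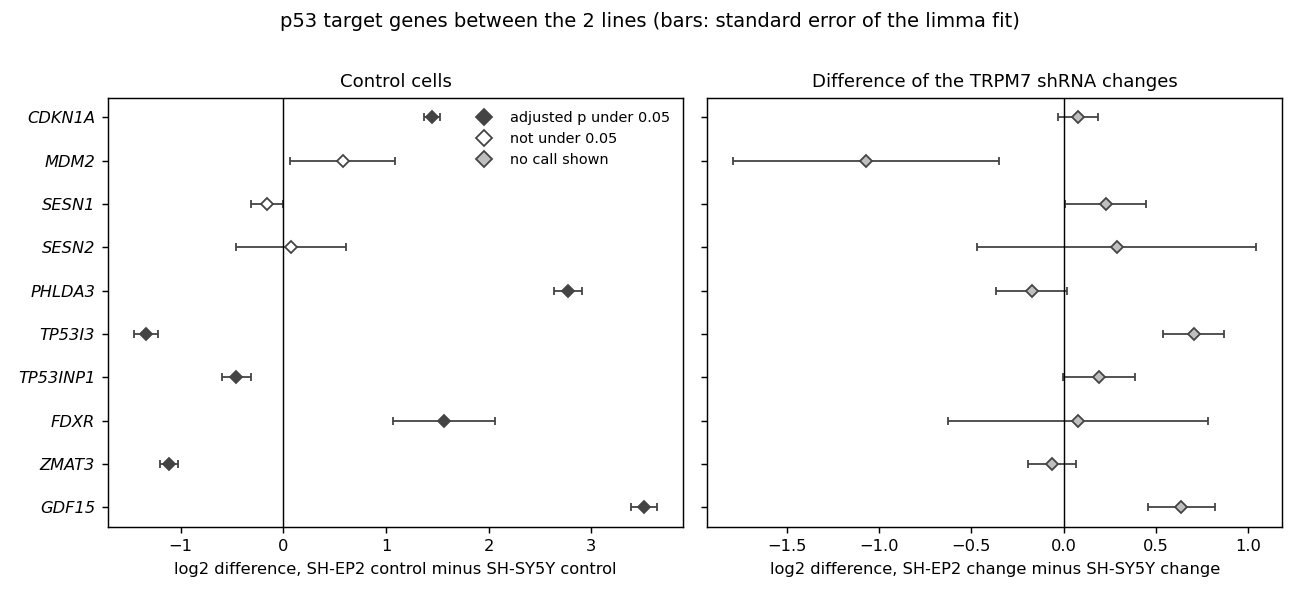
Left, log2 difference between SH-EP2 control and SH-SY5Y control cells, and right, the log2 change with TRPM7 shRNA in SH-EP2 minus that in SH-SY5Y cells, for the brightest probe of each of the 10 p53 target genes. Bars are the standard error of the limma fit. On the left black markers have an adjusted p under 0.05 and white ones do not, and on the right grey markers carry no call because the genes were chosen on these changes. On the left 7 genes are black, from TP53I3 at -1.34 to GDF15 at 3.51, and on the right TP53I3 lies at 0.70 and MDM2 at -1.07.

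A further 36 known p53 targets were listed with earlier results of these arrays known. Their counts and calls are therefore no independent support for a rise of p53 targets. Of these 36, 3 rose and 1 fell in SH-SY5Y TRPM7 shRNA cells, where 0.807% of all probes rose and 1.30% fell. In SH-EP2 TRPM7 shRNA cells 3 rose and 0 fell, where 1.48% of all probes rose and 1.54% fell. Of the 36, 34 were detected on at least 2 arrays. Among the 23961 probes so detected, 374 rose and 612 fell in SH-SY5Y cells, and 687 rose and 727 fell in SH-EP2 cells. At an unadjusted p under 0.05, 13 of the 36 were higher and 2 lower in SH-SY5Y cells. Beside this stood 2619 and 2771 of all 47322 probes, and 2055 and 2177 of the 23961 detected ones. In SH-EP2 cells 14 were higher and 0 lower at that level, beside 3083 and 2857 of all and 2587 and 2355 of detected probes. The median log2 change of the 36 was 0.14 in SH-SY5Y and 0.26 in SH-EP2 cells. It was positive in 24 and 27 of the 36, beside 23901 and 24000 of all 47322 probes. In SH-EP2 cells BTG2, an antiproliferative gene, rose by 1.24 (SE 0.232, limma adjusted p = 0.00326), DRAM1, a lysosomal regulator of autophagy, by 1.06 (SE 0.195, adjusted p = 0.0029), and CYFIP2, a subunit of the WAVE actin regulator, by 0.67 (SE 0.116, adjusted p = 0.00176). In SH-SY5Y cells these genes had changes of -0.20, -0.20 and 0.17, which did not pass the test. The size of the BTG2 change in SH-EP2 cells ran from 0.39 to 1.42 over 18 alternatives. In SH-SY5Y cells PIDD1, listed under an older symbol and part of a caspase-2 activating complex, rose by 0.73 (SE 0.17, adjusted p = 0.0249) and RPS27L, a ribosomal protein relative, by 0.28 (SE 0.0671, adjusted p = 0.0298). SPATA18, which takes part in the turnover of mitochondria, fell by 0.88 (SE 0.204, adjusted p = 0.0237). In SH-EP2 cells these had changes of 0.50, 0.02 and 0.47. The other gene that rose in SH-SY5Y cells is not named, because at most 6 genes are named per list.

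The change differed between the lines for 3 of the 36, where 1.40% of all probes passed that test, 375 with a positive and 287 with a negative difference (182 and 309 with median scaling). These were BTG2 (difference 1.44, SE 0.327, limma adjusted p = 0.0289), DRAM1 (1.25, SE 0.276, adjusted p = 0.0223) and SPATA18 (1.35, SE 0.288, adjusted p = 0.0177). BTG2 lost this call without any array but the first control of each line (1.25 to 1.48). DRAM1 lost it without any array but SH-SY5Y control replicate 1 and TRPM7 shRNA replicate 1 (0.92 to 1.29). SPATA18 lost it without SH-EP2 control replicate 1, either SH-EP2 TRPM7 shRNA array or the first array of either SH-SY5Y group (1.22 to 1.38). The count of other targets called in SH-SY5Y cells was 2 without either SH-EP2 TRPM7 shRNA array and 1 without either SH-SY5Y control array or without SH-SY5Y TRPM7 shRNA replicate 1. In SH-EP2 cells it was 1 without SH-EP2 control replicate 2 or TRPM7 shRNA replicate 1, and 5 without either SH-SY5Y control array. All changes with TRPM7 shRNA called here and below for named genes, except that of PSAT1 in SH-EP2 cells, lost their call when the fit had no intensity trend, as did the differences between the lines in those changes. With median scaling the differences of BTG2 (adjusted p = 0.103), DRAM1 (adjusted p = 0.0668) and SPATA18 (adjusted p = 0.0974) lost their call, as did the change of SPATA18 in SH-SY5Y cells (-0.70). With the mean over a gene's probes CYFIP2 (0.42), PIDD1 (0.55) and RPS27L (0.070) lost theirs, as did the difference of DRAM1 (1.25). RPS27L lost its call without any 1 of the 8 arrays, with a change of 0.27 to 0.29. In SH-EP2 cells BTG2 and DRAM1 lost theirs when control replicate 2 (1.05 and 1.03) or TRPM7 shRNA replicate 1 (1.21 and 1.02) was left out. SPATA18 did so when either SH-SY5Y control array (-0.83 without replicate 1 and -0.94 without replicate 2) or TRPM7 shRNA replicate 1 (-0.75) was left out. PIDD1 did so without SH-SY5Y control replicate 1 (0.63) and without either TRPM7 shRNA array (0.70 without replicate 1 and 0.77 without replicate 2).

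The apoptosis genes BAX and BBC3 and the repair genes DDB2 and XPC were looked up whatever their values and did not pass the test. BAX, which permeabilises mitochondria, had values of 0.44 (SE 0.129, limma adjusted p = 0.0985) in SH-SY5Y and 0.06 (adjusted p = 0.921) in SH-EP2 cells. It did pass in SH-SY5Y cells under 5 of 18 alternatives, among them without TRPM7 shRNA replicate 2 (0.67). BBC3, which encodes the cell death protein PUMA, had values of 0.04 and -0.25 (SE 0.227). DDB2, a sensor of ultraviolet damage, had 0.59 (SE 0.195, adjusted p = 0.163) and 0.21 (adjusted p = 0.754), and XPC, another such sensor, 0.44 (SE 0.117, adjusted p = 0.0558) and 0.38 (adjusted p = 0.104). XPC passed under 7 of 18 alternatives in SH-SY5Y cells, among them without TRPM7 shRNA replicate 2 (0.61), and under 5 of 18 in SH-EP2 cells, with a lowest adjusted p of 0.0145 when that line was fitted alone.

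MDM4, a relative of MDM2 that blocks p53, had log2 changes of 0.40 in SH-SY5Y and 0.21 in SH-EP2 cells with TRPM7 shRNA (SE 0.449), which did not pass the test. Of 15 relatives and regulators of p53, 0 passed in SH-SY5Y cells with limma, where 0.807% of all probes rose and 1.30% fell. At an unadjusted p under 0.05, 2 were higher in that line, beside 2619 of all 47322 probes. Among the 23961 probes detected on at least 2 arrays this count was 2055. In SH-EP2 cells 1 rose, where 1.48% of all probes rose and 1.54% fell. That was TP63, a p53 relative of epithelial cells with the same type of binding site, whose log2 signal went from 9.05 and 9.03 to 10.43 and 10.59 (change 1.47, SE 0.266, adjusted p = 0.00238). It lost the call without SH-EP2 control replicate 2 (1.46) or TRPM7 shRNA replicate 2 (1.39). Its change averaged over probes was 0.83, which did not pass. In SH-SY5Y cells TP63 was detected on 0 of 2 control arrays and 1 of 2 TRPM7 shRNA arrays, and in control cells it was at least 59.0-fold higher in SH-EP2 (adjusted p = 2.67e-13).

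Among ATF4 and its targets, listed because SESN2 and GDF15 answer to ATF4 too, PHGDH, ASNS and TRIB3 fell with TRPM7 shRNA in both lines. Of 12 genes, 3 fell and 0 rose in SH-SY5Y cells with limma, where 1.30% of all probes fell and 0.807% rose. In SH-EP2 cells 8 fell and 0 rose, where 1.54% of all probes fell and 1.48% rose. A gene among these 8 was detected on only 1 control array and no TRPM7 shRNA array of that line. At an unadjusted p under 0.05, 8 fell and 0 rose in SH-SY5Y cells, beside 2771 and 2619 of all 47322 probes. In SH-EP2 cells 8 fell and 1 rose at that level, beside 2857 and 3083. Of the 12 genes, 11 were detected on at least 2 arrays. Among the 23961 probes so detected, 2177 fell and 2055 rose at that level in SH-SY5Y cells. In SH-EP2 cells 2355 of them fell and 2587 rose. The median log2 change of the 12 was -0.41 in SH-SY5Y and -0.64 in SH-EP2 cells, beside 0.0048 and 0.0061 over all probes. PHGDH, the first enzyme of serine synthesis, had log2 changes of -1.24 in SH-SY5Y (SE 0.0782, adjusted p = 1.24e-08) and -1.22 in SH-EP2 cells (adjusted p = 1.04e-08). PSAT1, the next enzyme of that pathway, and ASNS, which makes asparagine, fell in SH-EP2 cells, with changes of -1.30 and -1.11 (adjusted p = 8.72e-08 and 6.38e-08), and in SH-SY5Y cells their changes were -0.21 and -0.33 (adjusted p = 0.427 and 0.0335). For both genes the decrease was larger in SH-EP2 cells, with a difference of -1.09 (SE 0.138, adjusted p = 0.000115) for PSAT1 and -0.78 (SE 0.115, adjusted p = 0.000599) for ASNS. VLDLR, a lipoprotein receptor, fell by 2.42 in SH-EP2 cells (SE 0.344, adjusted p = 0.000224). Its log2 signals on the SH-EP2 TRPM7 shRNA arrays were low, at 4.59 and 3.71. The size of its change ran from -2.88 to -0.67 over 18 alternatives. TRIB3, a pseudokinase that dampens AKT, had changes of -0.49 (SE 0.109, adjusted p = 0.0173) and -0.72 (adjusted p = 0.000408), and ATF4 one of -0.36 (SE 0.0745, adjusted p = 0.00717) in SH-EP2 cells. With the mean over a gene's probes PSAT1 (-0.61, adjusted p = 0.245) and VLDLR (-1.12, adjusted p = 0.208) in SH-EP2 cells and the difference of PSAT1 between the lines (-0.52, adjusted p = 0.637) lost their call, as did ATF4 (-0.28) and ASNS in SH-SY5Y cells (-0.39). With median scaling ASNS (-0.23) and TRIB3 (-0.33) in SH-SY5Y cells and ATF4 (-0.33) lost theirs. In SH-SY5Y cells ASNS lost its call without any 1 of the 8 arrays (-0.30 to -0.36). In SH-SY5Y cells TRIB3 lost it without control replicate 2 (-0.42) or TRPM7 shRNA replicate 1 (-0.41). ATF4 lost it without SH-EP2 control replicate 1 (-0.32), TRPM7 shRNA replicate 1 (-0.38) or TRPM7 shRNA replicate 2 (-0.35).

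Of 16 cell cycle genes that p53 represses through p21, 1 fell in SH-SY5Y cells, where 1.30% of all probes fell. That was BIRC5, which encodes the mitotic protein survivin (-0.37, SE 0.0889, limma adjusted p = 0.0317). It lost the call without any 1 of the 8 arrays (-0.33 to -0.40), with median scaling (-0.24) and with the mean over probes (-0.28). At an unadjusted p under 0.05, 2 were higher and 2 lower in SH-SY5Y cells, beside 2619 and 2771 of all 47322 probes. In SH-EP2 cells 0 of 16 passed the limma test, where 1.48% of all probes rose and 1.54% fell. At an unadjusted p under 0.05, 1 was higher and 3 were lower, beside 3083 and 2857 of all 47322 probes. All 16 were detected on at least 2 arrays. Among the 23961 probes so detected, 2587 were higher and 2355 lower in SH-EP2 cells, and 2055 and 2177 in SH-SY5Y cells. The median log2 change was 0.08 in SH-SY5Y and -0.22 in SH-EP2 cells. Changes were positive in 11 and 2 of the 16, beside 23901 and 24000 of all probes. Both SH-EP2 TRPM7 shRNA arrays lay below both controls for 12 and above for 1, beside 9828 and 10461 of all probes. In SH-SY5Y cells these counts were 4 and 5, beside 9066 and 9445. The change differed between the lines for 1 of the 16 by the limma test, where 1.40% of all probes passed.

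**Figure D4:**
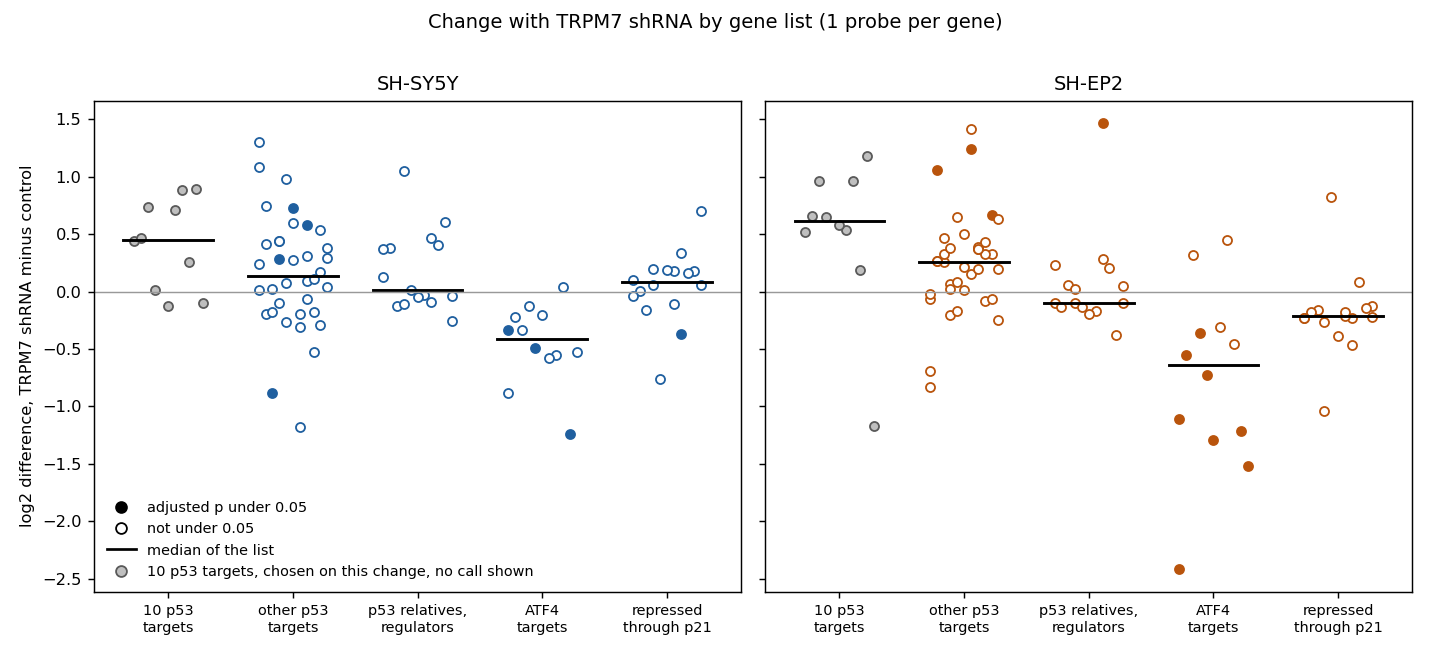
Log2 difference between TRPM7 shRNA and control cells (vertical axis) for single genes, by list, in SH-SY5Y (left) and SH-EP2 cells (right). Points are genes at their brightest probe, filled where the limma adjusted p was under 0.05, black lines are medians, and the 10 p53 target genes are grey because they were chosen on this change. The medians of the other p53 targets are 0.14 and 0.26, and those of ATF4 and its targets are -0.41 and -0.64.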

How the data were processed

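Per the labels and the study's methods, total RNA of SH-SY5Y and SH-EP2 cells was hybridised to Illumina HumanHT-12 v4 arrays (8 arrays, 4 groups of 2), and the authors extracted signal intensity and a detection p-value per probe in GenomeStudio 2011.1, with no normalisation in the deposited table. The methods normalised by RMA and do not name their test. Here the RMA background model, quantile normalisation and log2 were applied, and 4 group means were fitted in limma 3.58.1 (R 4.3.3; eBayes with an intensity trend), with two-sided tests and p-values adjusted by Benjamini-Hochberg across the 47322 probes. Where 1 array of a group was left out, the lone array was assumed to vary like the other groups. The background level was 98.3 to 111.1 with a spread (SD) of 6.71 to 8.05, and probes close to it are imprecise, and 2 arrays per group limit the precision.

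The 10 genes, all gene lists and the alternatives were chosen with earlier results of these data known. Genes named are the 10 targets, TRPM7, 5 p53 pathway genes looked up whatever their values (MDM4, BAX, BBC3, DDB2, XPC) and, from the lists of other p53 targets, p53 relatives and regulators, ATF4 and its targets, and cell cycle genes, up to 6 genes each by adjusted p among those called in either line. 1 further gene set for looking up is not reported here. The fit was tested on simulated data. Replicate numbers did not pair the arrays: differences between replicates correlated at -0.11 (SH-SY5Y) and -0.0045 (SH-EP2) over 14577 probes. A difference between the lines in the change is tested only for genes outside the 10 and detected on an array of every group.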

Additional observations from a re-analysis of the deposited data

Results flagged for a closer look

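The change with TRPM7 shRNA differed between the lines by a test of the difference itself (limma, SH-EP2 change minus SH-SY5Y change) for 5 of the genes named that are not among the 10 targets. DRAM1 had a difference of 1.25 (SE 0.276, adjusted p = 0.0223), BTG2 1.44 (SE 0.327, adjusted p = 0.0289) and SPATA18 1.35 (SE 0.288, adjusted p = 0.0177). Of these, BTG2 and DRAM1 passed the test in SH-EP2 cells and SPATA18 in SH-SY5Y cells, and their changes in the other line, of opposite sign, did not pass. ASNS had -0.78 (SE 0.115, adjusted p = 0.000599) and PSAT1 -1.09 (SE 0.138, adjusted p = 0.000115), both with the larger decrease in SH-EP2 cells. Groups of 2 arrays are too small to single out a deviating array.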

How the results depend on the processing

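The median log2 change of the 10 genes, 0.45 in SH-SY5Y and 0.61 in SH-EP2 cells, was 0.23 and 0.48 with normexp at an offset of 50 and 0.19 and 0.43 with no background correction. In SH-SY5Y cells it was 0.58 with median scaling and 0.33 with each gene taken as its mean over probes, and it ran from 0.23 to 0.58 when 1 array was left out (0.54 to 0.62 in SH-EP2 cells). Of 360 changes of the single genes under alternatives, 353 kept their sign, and those that did not were of MDM2, TP53I3, ZMAT3 and GDF15. Between 5 and 7 of the 10 genes differed between the lines in control cells under every alternative run. The difference between the lines in the change is not counted for the 10 genes, because they were chosen on those changes. Without the intensity trend the limma counts of other p53 targets called, 4 in SH-SY5Y and 3 in SH-EP2 cells, were 0 and 0, and over all probes 64 and 100 changes remained past the threshold (4590 and 4973 at an unadjusted p under 0.05). The other counts were 1 in SH-SY5Y cells with the mean over probes and 1 to 3 when 1 array was left out, and in SH-EP2 cells 5 and 7 with normexp at an offset of 16 and 50, 7 with no background correction, 6 with detected probes only, 9 with the line fitted alone and 1 to 5 when 1 array was left out. The cause of these shifts was not tested.

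With replicate number as a block in each line, the medians were unchanged and 7 genes differed between the lines in control cells. In that fit 0 other targets were called in SH-SY5Y and 3 in SH-EP2 cells. With the SH-SY5Y numbers crossed, a pairing added after the data were seen, these counts were 7, 6 and 6.

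Of 39 single tests under alternatives, 548 of 690 values stayed on their side of the threshold, 118 lost and 17 gained a call, and 7 changed sign, all of uncalled genes. With 1 array left out, MDM4 ran from -0.054 to 0.87 in SH-SY5Y and from -0.0997 to 0.52 in SH-EP2 cells, with negative values without SH-SY5Y control replicate 1 or TRPM7 shRNA replicate 1 (-0.0050) and without SH-EP2 TRPM7 shRNA replicate 2. BAX in SH-EP2 cells ran from -0.0374 to 0.16, negative without control replicate 1, and was -0.17 with the mean over probes. BBC3 in SH-SY5Y cells ran from -0.18 to 0.26, negative without control replicate 2 (-0.12) or TRPM7 shRNA replicate 1. Probes near the background (MDM2, SESN2, FDXR) have standard errors of 0.497 to 0.535 and limit what can be said of those genes.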
